A study of Mus musculus with 83 samples.

Results

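The 9 genes described here encode histone acetyltransferases, BET proteins that read acetylated histones, and the coactivators that bring acetyltransferases to nuclear receptors. They are Crebbp and Ep300, Kat2a and Kat2b, Brd2 and Brd3, and Ncoa1, Ncoa2 and Ncoa3, and they were taken by symbol. Of these, 7 are among the 11144 genes of the culture tables, and all 9 are in the tissue table, where 15 of 29082 transcripts belong to them. Kat2a and Brd2 have no value in the culture tables used here, under these symbols or the older ones in RefSeq. Why they are missing is not known here, and their absence is not read as a low level.

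The series followed brown preadipocytes becoming fat cells in culture, mainly by chromatin profiling of transcription factors, cofactors and histone marks, CBP among them. The question named by its title is whether MLL3 and MLL4, which methylate H3K4 at enhancers, are needed for CBP and p300 to bind there. Of its 83 samples, 5 RNA libraries are used here. The cells came from the interscapular brown fat of newborn mice on a C57BL/6J background, were homozygous for a floxed Pparg allele in all 4 culture libraries, and had been immortalized by a retrovirus carrying SV40 large T antigen. The day -3 library came from proliferating cells and the day 0 library from confluent cells, to which an induction mix of IBMX, dexamethasone, indomethacin, insulin and T3 was then added. The day 2 library came from immature adipocytes and the day 7 library from mature ones, which had been kept in insulin and T3 from day 2 on. The remaining library came from brown adipose tissue of C57BL/6J mice aged 16 weeks, and the number of animals in it is not known here. Each group is 1 library, so no difference below has a replicate check, a p-value or an error.

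CBP and p300 are large paralogous acetyltransferases that act at enhancers, where they are known for acetylating H3K27. GCN5 (Kat2a) and PCAF (Kat2b) are alternative catalytic subunits of the SAGA and ATAC complexes and are known for acetylating H3K9. The p160 proteins SRC-1, TIF2 and SRC-3 (Ncoa1, Ncoa2, Ncoa3) bind ligand-activated nuclear receptors and in turn recruit CBP or p300. BET proteins bind acetylated histone tails through paired bromodomains and link them to transcription elongation. In fat, p160 proteins serve as coactivators of PPARγ, and IBMX raises cAMP, which acts through CREB and its partner CBP. Large T antigen, present in these cells at all 4 times, is itself known to bind CBP and p300.

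The culture values are FPKM, fragment counts scaled for transcript length and library size, with library medians from 12.2 to 13.4 over all genes. The depth of these libraries is unknown. The day -3 library has the highest summed FPKM, 368527, against 313685 to 334914 in the other 3. Between day -3 and day 0, 67.6% of the genes that differed by at least 2-fold were higher. Rescaling to a common total made this 80.6% and moved the median of all genes by 0.19 on the log2 scale. The labels were checked against markers: the 10 adipocyte markers summed to 62.2, 142, 7040 and 7257 FPKM at days -3, 0, 2 and 7. Fabp4 and Lpl made up most of the sums at days 2 and 7 and were lower at day 7. From day 2 to day 7, 7 of the 10 were at least 2-fold higher and 0 lower, beside 9.62% and 5.14% of all genes. The 7 brown fat markers with culture values summed to 0.832, 3.09, 3.61 and 158 FPKM. Most of the day 7 sum was Cox7a1, a subunit of cytochrome c oxidase, at 132 FPKM, while Ucp1, the thermogenic uncoupler, was at 0, 0, 0.0357 and 1.22 FPKM. The 6 preadipocyte markers with culture values summed to 78.8, 200.2, 118 and 48.4 FPKM. This sum was higher at day 2 than at day -3, so it does not separate labelled preadipocytes from adipocytes. From day -3 to day 7, 1 of the 6 (Pdgfra, 1.64 to 11.7 FPKM) was at least 2-fold higher and 3 were lower. Of all compared genes, 20.3% were higher and 14.7% lower. In the tissue library Ucp1 was at 1015 RPKM.

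The 7 genes with culture values fell into a flat set and a climbing set. Crebbp, Ep300, Brd3 and Ncoa3 each stayed within 0.25 on the log2(FPKM + 1) scale over the 4 libraries, a narrow range that 3.39% of all genes showed, although Ep300 came to 0.26 after rescaling to a common total and Ncoa3 to 0.27 with median-ratio factors. Kat2b, Ncoa1 and Ncoa2 were higher in each library than in the one before, with ranges of 2.03, 2.51 and 1.13. A climb at every step with a range of at least 1 was seen for 9.25% of all genes. The median range was 0.21 for the 7 genes and 0.97 for all 11144. By day 7 the most abundant of the 7 was Kat2b, which had been at place 5 at day -3. The split ran within 1 family, the p160 genes, since Ncoa3 was flat while its paralogs Ncoa1 and Ncoa2 climbed. Crebbp and Ep300 were both flat, and Kat2a and Brd2 have no culture values to set beside Kat2b and Brd3.

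**Figure D1:**
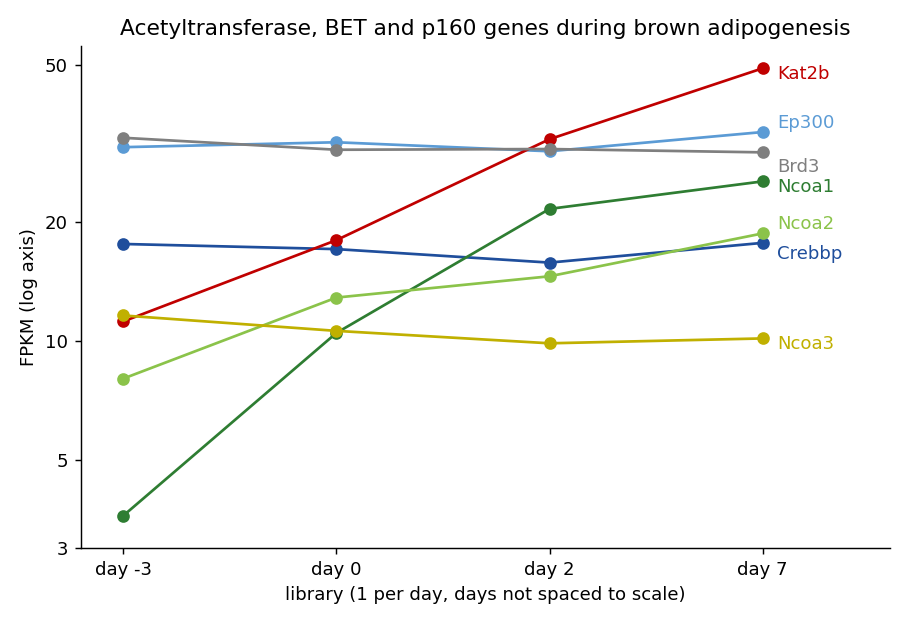
Level of each gene in FPKM (log axis) at days -3, 0, 2 and 7, 1 library per point and no error bars because no day was replicated. Kat2b goes from 11.2 to 49.0 and Ncoa1 from 3.63 to 25.4, while Ep300, Brd3, Crebbp and Ncoa3 run nearly level.

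**Figure D2:**
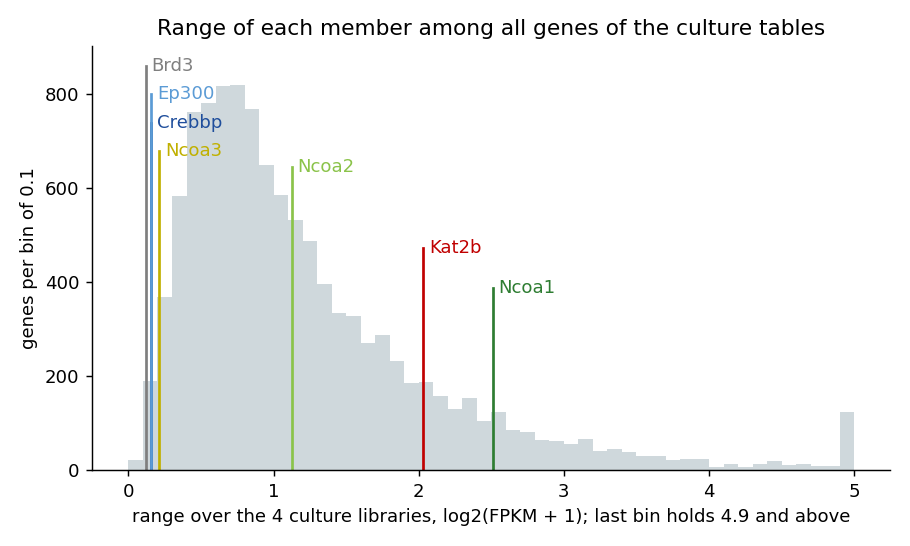
Number of genes of the culture tables (y axis, bins of 0.1) by the range of their values over the 4 libraries on the log2(FPKM + 1) scale (x axis), with a vertical line for each of the 7 genes. Brd3, Crebbp, Ep300 and Ncoa3 sit at the far left edge, Ncoa2 at 1.13 close to the middle, and Kat2b at 2.03 and Ncoa1 at 2.51 to the right.

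Promoter sequence is shown for 4 genes. Kat2b and Ncoa1 both climbed and have windows of different composition. Crebbp and Ep300 were flat and, like Ncoa1, have windows rich in G+C. Any part of promoter composition in these levels was not tested. RefSeq windows of 300 bases on build GRCm38.p6, another build than the mm9 of the submitters' processing notes, matched 7 of the 9 genes (not Ncoa2 and Ncoa3). Each runs from 250 bases before a transcript start to 50 after it. Bases in capitals mark matches, on either strand, to the CREB half-site TGACG or to the GC box, which is written GGGCGG.
Kat2b, chr17:53566721-53567020, plus strand: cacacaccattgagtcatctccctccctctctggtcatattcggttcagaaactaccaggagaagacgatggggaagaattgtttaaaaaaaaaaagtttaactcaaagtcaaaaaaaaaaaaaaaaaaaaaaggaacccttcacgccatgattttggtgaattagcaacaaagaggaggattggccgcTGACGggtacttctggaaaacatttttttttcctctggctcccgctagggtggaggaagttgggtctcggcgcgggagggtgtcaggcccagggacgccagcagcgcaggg
Ncoa1, chr12:4477133-4477432, minus strand: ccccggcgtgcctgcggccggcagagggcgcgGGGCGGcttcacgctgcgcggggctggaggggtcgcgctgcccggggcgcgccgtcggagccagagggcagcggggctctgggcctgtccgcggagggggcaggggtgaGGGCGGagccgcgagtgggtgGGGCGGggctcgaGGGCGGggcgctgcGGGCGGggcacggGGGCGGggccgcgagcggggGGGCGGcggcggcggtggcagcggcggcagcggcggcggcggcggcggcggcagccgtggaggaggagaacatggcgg
Crebbp, chr16:4213355-4213654, minus strand: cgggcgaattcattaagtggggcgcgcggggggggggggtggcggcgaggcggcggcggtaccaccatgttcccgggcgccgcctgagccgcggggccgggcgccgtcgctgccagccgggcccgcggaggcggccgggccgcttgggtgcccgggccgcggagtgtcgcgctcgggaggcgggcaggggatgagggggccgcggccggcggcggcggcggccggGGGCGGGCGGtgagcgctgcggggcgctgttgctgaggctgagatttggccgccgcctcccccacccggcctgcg
Ep300, chr15:81585964-81586263, plus strand: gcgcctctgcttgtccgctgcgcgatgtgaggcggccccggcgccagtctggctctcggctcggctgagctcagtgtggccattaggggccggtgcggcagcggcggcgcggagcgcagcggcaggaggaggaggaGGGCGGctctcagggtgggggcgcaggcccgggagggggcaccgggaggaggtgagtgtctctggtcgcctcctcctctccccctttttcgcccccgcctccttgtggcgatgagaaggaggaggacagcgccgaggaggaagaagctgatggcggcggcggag

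The Kat2b window has a G+C content of 47.0%, below the median of 52.7% over all 32851 windows, and it holds 1 CREB half-site and 0 GC boxes. The Kat2a window and 1 of the 3 Brd2 windows also hold 1 CREB half-site each. A second Kat2b window, at chr17:53583876-53584175, has 48.3% G+C and holds neither. The Ncoa1 window has 84.7% G+C, the 99.9th percentile, with 7 GC boxes and 0 CREB half-sites. The windows of the flat genes are also rich in G+C, with 82.0% and 2 overlapping GC boxes for Crebbp and 72.3% and 1 GC box for Ep300, and the Brd3 window holds 2. Of all windows, 20.8% hold the CREB half-site and 35.7% the GC box. The motifs were chosen with the expression values known. A C/EBP-type motif, TTGCNNAA, on either strand was in 0 of the 10 windows of these genes and in 10.8% of all windows, and a nuclear receptor half-site, AGGTCA, was in 0 of the 10 and in 16.3%. An EBF-type motif, CCCNNGGG, was in 3 of the 10, the Kat2a window and 2 Brd2 windows, and in 13.7% of all windows. A match describes letters, and a missing match says only that these letters are not in the window.

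Crebbp, which encodes CBP, was at 17.6, 17.1, 15.8 and 17.7 FPKM at days -3, 0, 2 and 7. Its highest value was 1.12 times its lowest, a range smaller than that of all but 0.77% of genes. Ep300, which encodes p300, was at 31.0, 31.8, 30.2 and 33.8 FPKM, again with a highest value 1.12 times the lowest. As deposited, both genes had their lowest value at day 2, the time at which the series profiled CBP and p300 in cells lacking MLL3 and MLL4 (not analysed here). After rescaling to a common total both were lowest at day -3 instead, at 16.0 and 28.1 FPKM. The sum of both was 48.6, 49.0, 46.0 and 51.5 FPKM. Ep300 was the more abundant in every library, at 1.76, 1.86, 1.91 and 1.91 times Crebbp, a ratio that no scaling of a library can change. Differences as small as these depend on scaling: from day -3 to day 7 Crebbp differed by 0.01 on the log2 scale as deposited, 0.14 after rescaling to a common total and -0.06 with median-ratio factors.

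Kat2b, which encodes PCAF, was at 11.2, 18.0, 32.4 and 49.0 FPKM from day -3 to day 7. Each step was of like size, 0.64, 0.81 and 0.58 on the log2 scale, so none reached 2-fold alone while day 7 was 4.36 times day -3. In rank among all genes of its library Kat2b went from the 47.8th percentile at day -3 to the 86.5th at day 7. Set against p300, the ratio of Kat2b to Ep300 was 0.36, 0.57, 1.07 and 1.45, crossing 1 between days 0 and 2. Against Crebbp the ratio was 0.64, 1.05, 2.05 and 2.76. The adipocyte markers climbed over the same libraries, as given above, and their part in the climb of Kat2b was not tested. In bulk RNA, more cells expressing a gene and more RNA of it per cell cannot be told apart.

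Among the p160 genes, Ncoa1, which encodes SRC-1, had the widest range of the 7 genes. Its levels were 3.63, 10.5, 21.6 and 25.4 FPKM. Most of the climb lay between day -3 and day 2, with log2 differences of 1.31 and 0.98 at the first and second steps and 0.22 at the last. The second difference falls just short of 2-fold on the log2(FPKM + 1) scale, although the deposited values themselves stand at a ratio of 2.06. Ncoa2, which encodes TIF2, was at 8.05, 12.9, 14.6 and 18.7 FPKM, and 2.33 times as high at day 7 as at day -3. Without the day -3 library its range was 0.51, under 2-fold, against 1.39 for Kat2b and 1.20 for Ncoa1. Ncoa3, which encodes SRC-3, was at 11.6, 10.6, 9.89 and 10.2 FPKM.

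The makeup of the p160 pool therefore differed between the libraries. At day -3 Ncoa3 made up 49.9% of the summed level of the 3 genes, Ncoa2 34.6% and Ncoa1 15.6%. At day 7 Ncoa1 made up 46.7%, Ncoa2 34.5% and Ncoa3 18.7%. The order of Ncoa1 and Ncoa3 was thus reversed, and the levels were almost equal at day 0, where Ncoa1 was 0.99 times Ncoa3. The sum of the 3 genes was 23.3, 34.03, 46.1 and 54.3 FPKM over the 4 libraries. At day -3 this sum was below that of Crebbp and Ep300, and at day 7 it was above it.

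**Figure D3:**
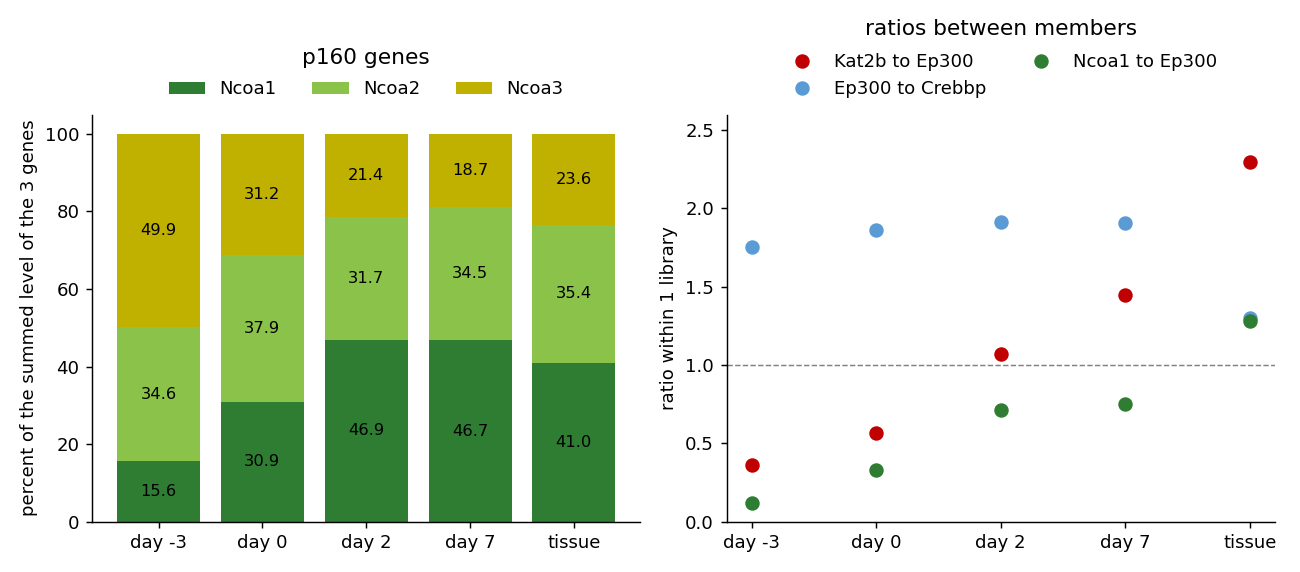
Left: share of Ncoa1, Ncoa2 and Ncoa3 in the summed level of the 3 genes (percent) in each culture library (FPKM) and in brown adipose tissue (RPKM, highest transcript). Right: ratios between members within each library, dashed line at 1; the Kat2b to Ep300 ratio goes from 0.36 to 1.45 in culture and is 2.30 in the tissue.

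Of the BET genes, Brd3 was at 32.7, 30.5, 30.6 and 30.03 FPKM, and its range of 0.12 is exceeded by all but 0.28% of genes. Brdt, a BET gene outside the 9 that is known from testis, was at 0.326, 2.65, 3.00 and 3.20 FPKM. In the brown adipose tissue library its 2 transcripts were at 0 and 0.318 RPKM.

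By step, 1 of the 7 genes (Ncoa1) was at least 2-fold higher at day 0 than at day -3, beside 11.3% of 10602 compared genes. With a bound of 1.5-fold there were 3 (Ncoa1, Kat2b and Ncoa2), beside 23.4%. From day 0 to day 2, 0 of 7 were 2-fold higher, beside 6.18% of all genes, and 2 (Ncoa1 and Kat2b) were 1.5-fold higher, beside 14.6%. From day 2 to day 7, 0 of 7 reached 2-fold, beside 9.62%, and 0 of 7 reached 1.5-fold on the log2(FPKM + 1) scale, beside 19.2%. Kat2b lay at that edge, with deposited values at a ratio of 1.51. Between day -3 and day 7, 3 of 7 were at least 2-fold higher (Ncoa1, Kat2b and Ncoa2), beside 20.3% of 10828 compared genes. None of the 7 was 2-fold lower in any of the 4 comparisons, where 5.43%, 10.7%, 5.14% and 14.7% of all genes were, in the order of the steps with day -3 to day 7 last. Comparisons that share a library are not independent. The median log2 difference of the 7 genes from day -3 to day 7 was 0.12, and that of all compared genes was 0.07.

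Genes with the profile most like each climbing member were sought among 7856 others with a value of at least 10 FPKM, by the Euclidean distance of log2 profiles centred over the 4 libraries. For Kat2b the nearest was Cebpb, which encodes C/EBPβ, a factor of early adipogenesis profiled on chromatin by the series, at a distance of 0.12. Cebpb was at 24.9, 35.3, 69.2 and 104 FPKM. H2-Ke6 and Ccbl2 came next, at distances of 0.12 and 0.13. For Ncoa1 the nearest were Clec2d (0.09), Polr3gl, which encodes a subunit of RNA polymerase III (0.13), and Pcca, a subunit of the mitochondrial propionyl-CoA carboxylase (0.13). For Ncoa2 they were Cybasc3 (0.02), Tfdp2, an E2F dimerization partner (0.04), and 0610011F06Rik (0.07). Within a distance of 0.25 lay 15 genes for Kat2b, 7 for Ncoa1 and 130 for Ncoa2, but 399 for Crebbp, 406 for Ep300, 542 for Brd3 and 481 for Ncoa3. With 4 libraries, a close profile is a description only.

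In brown adipose tissue the values are RPKM, read counts scaled in the same way, for single transcripts. Brd2 was the most abundant of the 9 genes, with 3 transcripts at 21.0, 21.9 and 23.1 RPKM, the last a noncoding RefSeq entry. Kat2b came next with 2 transcripts at 11.9 and 12.9, and then Brd3 with 3 transcripts between 8.18 and 8.39. Ncoa1 was at 7.22 RPKM, Ncoa2 at 6.24 and Ep300 at 5.64. The lowest were Kat2a, with both transcripts at 4.48, Crebbp at 4.33 and Ncoa3 at 4.15. The level of 1 read per kb was estimated at 0.187 RPKM. This value was chosen to bring transcripts of single-exon receptor genes near whole numbers of reads. With it 32 of 37 came within 0.05 of a whole number, which reflects the choice and is no separate check. By this estimate the 9 genes had between 22.2 and 123 reads per kb. With 1 library there is no spread against which neighbours in this order, such as Crebbp and Ncoa3, could be compared.

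**Figure D4:**
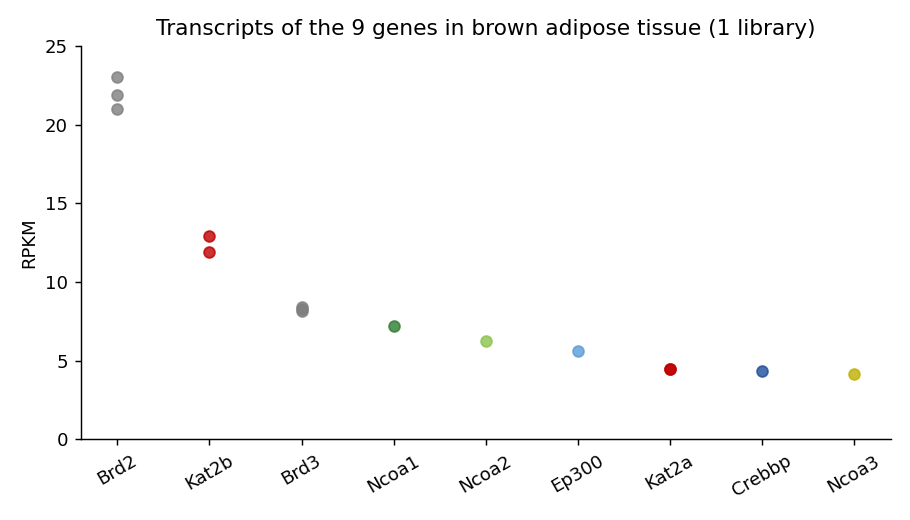
RPKM of each of the 15 transcripts of the 9 genes in the 1 tissue library, genes ordered by their highest transcript. Brd2 stands highest at 21.0 to 23.1 RPKM, followed by Kat2b at 11.9 and 12.9, and the other genes lie below 9.

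Since culture and tissue were measured in different units, only ratios and ranks within a library are set side by side. The processing differed too, with values by gene in culture and by transcript in the tissue. A difference of processing and a difference between tissue and culture therefore cannot be told apart in these ratios and ranks. In the tissue, Kat2b was 2.30 times Ep300, against 1.45 in the day 7 culture, and 2.89 times Kat2a. Ep300 was 1.30 times Crebbp, against 1.91 at day 7. Ncoa1, Ncoa2 and Ncoa3 made up 41.0%, 35.4% and 23.6% of their sum, the same order as at day 7 and the reverse of day -3. Brd2 was 2.75 times Brd3. Ranked over 10461 genes with at least 1 in either library, Ep300 stood 23.3 percentage points lower in the tissue, at the 53.5th percentile against the 76.8th. It was the only one of the 7 genes past 20 points, and 0 of 7 were past 20 points upwards. Of all ranked genes, 14.4% were at least 20 points lower and 14.5% at least 20 points higher. For the others the difference in points was -11.3 for Crebbp, -8.94 for Kat2b, -8.16 for Brd3, -7.95 for Ncoa1 and -2.02 for Ncoa2, and Ncoa3 stood 5.70 points higher.

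The tissue also holds other cells: 6 endothelial markers summed to 146 RPKM, 7 skeletal muscle markers to 1252, 6 macrophage markers to 29.1 and 4 blood markers to 208. Only 1, 2, 2 and 1 marker of these lists had culture values, and their sums at day 7 were 0.0668, 2.13, 5.012 and 1.34 FPKM. Proliferation markers differed too, with 6 genes summing to 620 FPKM at day 7 and 7.24 RPKM in the tissue. The part of these cells and of proliferation in the tissue ranks was not tested. Within the culture the 6 proliferation genes summed to 636, 546, 678 and 620 FPKM, and 0 of 6 differed by 2-fold in any of the 4 comparisons. These markers therefore do not separate the library labelled proliferating from the confluent one or from the adipocytes.

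Genes that work with these enzymes were taken as lists, whose counts between day -3 and day 7 stand beside 20.3% higher and 14.7% lower among all compared genes. The counts for acetyltransferases, SAGA and ATAC subunits, CBP or p300 partners and coregulators are small, and nothing particular to those lists is read from them. Of 12 other acetyltransferase genes 10 had culture values, and between day -3 and day 7 there was 1 that was 2-fold higher and 0 that were lower. That was Kat6b, a MYST-family enzyme listed as Myst4, at 2.72 and 8.40 FPKM. Atat1, which acetylates tubulin, was at 16.2, 34.4, 11.9 and 14.9 FPKM and so was high at confluence. Of 23 subunits of SAGA and ATAC, the complexes that hold Kat2a or Kat2b, 1 was 2-fold higher and 3 were lower at day 7 than at day -3, with a median log2 difference of -0.24. Supt3h was at 12.0 and 29.0 FPKM, while Taf9 was at 40.0 and 15.4 and Taf5l at 23.8 and 9.33. The median of -0.24 is of the values as deposited. Rescaling to a common total moved the median of all genes upwards by 0.13 in this comparison, so the subunit median is not set against the climb of Kat2b.

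Of 14 compared transcription factors and adaptors known to bind CBP or p300, 3 were higher at day 7 than at day -3 and 0 lower, with a median of -0.06. Epas1, a hypoxia-inducible factor, was at 0.409, 1.13, 7.81 and 14.1 FPKM, Foxo1 at 2.46, 3.94, 15.9 and 31.2, and Crem, a cAMP-responsive factor, at 3.37, 5.13, 6.00 and 8.63. Nuclear receptors, which p160 proteins serve, were 2-fold higher for 9 of 17 and lower for 1, with a median of 1.08. Among them Nr1h3, the oxysterol receptor LXRα, was at 0.141 and 23.4 FPKM at days -3 and 7, Pparg at 16.8 and 185, and Ppara at 0.0639 and 6.52. Of 12 other coregulators of nuclear receptors 2 were higher and 3 lower. Ppargc1b, which encodes PGC-1β, was at 0.924, 0.761, 12.7 and 42.3 FPKM and Nrip1, the corepressor RIP140, at 5.90, 6.17, 31.2 and 23.7. Pprc1, a relative of PGC-1, went the other way, from 83.0 through 35.2 and 35.7 to 15.7 FPKM. In the same libraries Ncoa1 and Ncoa2 climbed, while Ncoa3, also a p160 gene, stayed nearly level. Any link between receptor and p160 levels was not tested, and the share of adipocytes in these cultures was not measured.

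**Figure D5:**
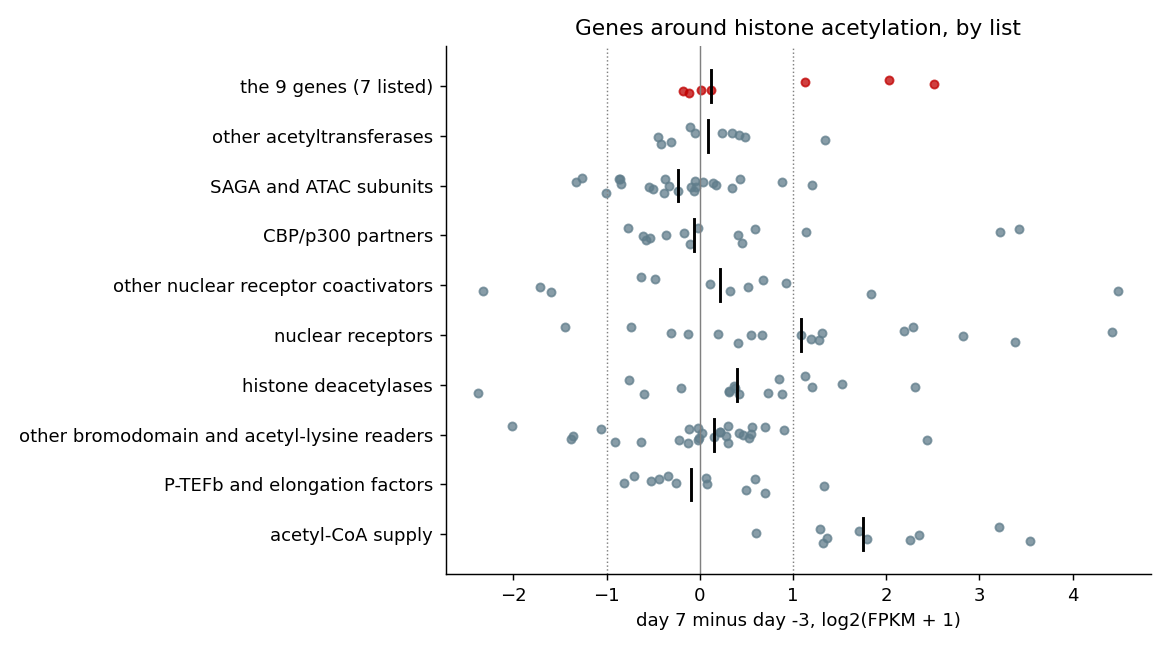
Log2(FPKM + 1) difference between day 7 and day -3 (x axis) for each compared gene of the 7 members and of 9 lists of related genes; black bars are medians and dotted lines mark 2-fold. Nuclear receptors, with a median of 1.08, and acetyl-CoA supply genes, with a median of 1.75, lie furthest to the right.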

How the data were processed

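Poly(A) RNA was sequenced from 5 samples, grouped by their titles with 1 library each; the other 78 samples are not analysed here. The culture values are FPKM by gene symbol, as the authors deposited them; each gene listed reached above 1 FPKM in at least 1 library (smallest maximum 1.00125), and no other filter is known here. For the tissue the authors deposited RPKM by RefSeq transcript. The submitters' processing notes name Cufflinks 1.0.3, TopHat2 2.0.10, SICER and CASAVA 1.8.2 for the culture libraries, CASAVA 1.8.2 for the tissue and build mm9 for both. The annotation and the role of each tool are not given in the sources used here.

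Differences are of log2(FPKM + 1), a scale that understates differences of low genes. A gene counted as higher or lower at a difference of at least 1 (2-fold), provided that 1 of both values reached 1. These are rules of size for single libraries, not tests. In any pair of culture libraries at most 4.65% of the low genes shared 1 ratio, so read counts were not recovered. Tissue transcripts were matched by accession in a RefSeq table of GRCm38.p6 (28436 of 29082, 97.8%), the highest standing for the gene; gene lengths in that table gave the estimate of reads. Named genes were all members, the 3 nearest profiles of members with a range of at least 1, and up to 3 genes per list with the largest difference at any step. The members, lists and rules were chosen with earlier results of these data known. Python 3.11.15, pandas 2.3.3, numpy 2.4.6 and matplotlib 3.10.9 were used. The size rule was run on simulated data with an assumed noise, where all planted differences lay above its bound. That run checks the code only and says nothing about the error of these libraries. Results for 1 gene of a list are not reported here. Alternative scalings gave each culture library a common total of FPKM, or divided it by its median ratio to the geometric mean of the libraries (median-ratio factors).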

Additional observations from a re-analysis of the deposited data

How the results depend on the processing

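No paired analysis was possible because each group is 1 library and the labels carry no replicate numbers; for the same reason no replicate could be left out. Of 101 alternative values over 22 results, 86 were counted as unchanged and 15 as moved. An unchanged value lay within 1.5 times the reported one and did not go to or from 0 or, for a range, across 1. A change of direction was not looked for. Some alternatives could not move, such as tissue ratios between genes with 1 transcript each. At day 0 the number of genes 2-fold higher than at day -3 was 0 with a pseudocount of 5 and 3 with a bound of 1.5-fold, in place of 1. At day 2 against day 0 it was 1 (Ncoa1), in place of 0, with a pseudocount of 0.1, after rescaling to a common total and by the ratio of deposited FPKM (an alternative added after seeing the data), and 2 with a bound of 1.5-fold. The count of 3 genes higher at day 7 than at day -3 was 2 with a pseudocount of 5 and 3 under the other alternatives. Rescaling to a common total gave ranges of 0.26 for Ep300 and 0.12 for Ncoa3, and median-ratio factors, added after seeing the data, gave 0.19 for Brd3. The range of Ncoa2 was 0.86 with a pseudocount of 5. Leaving out the day -3 library, also added after seeing the data, gave 0.027 for Brd3, 1.20 for Ncoa1, 0.51 for Ncoa2 and 0.095 for Ncoa3. In the tissue, Kat2b was 4.403 times Ep300 when transcripts were summed, which by construction counts reads shared by transcripts more than once. Depth in culture is unknown, so no interval can be put on any level.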

Other observations

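Acetyl-CoA, the substrate of acetyltransferases, is made and moved by enzymes and carriers, and the list for it also holds Cs, the citrate synthase that uses it. Among the 10 genes of this list, 9 passed 2-fold upwards between day -3 and day 7 and 0 downwards, beside 20.3% of all compared genes higher, with a median log2 difference of 1.75. Acss2, which makes acetyl-CoA from acetate in cytosol and nucleus, was at 1.87, 7.06, 9.72 and 32.3 FPKM at days -3, 0, 2 and 7. Pdhb, a subunit of pyruvate dehydrogenase, was at 19.8, 21.7, 53.7 and 191 FPKM, and Acat1, a mitochondrial thiolase, at 16.5, 33.4, 49.8 and 88.6. The gene that did not pass was Acly, which makes cytosolic acetyl-CoA from citrate, at 65.5, 73.9, 51.0 and 100.005 FPKM. In the tissue Acly was at 805 RPKM, Acss2 at 179, Pdhb at 281 and Acat1 at 118. The list mixes mitochondrial genes, such as Acat1, with genes of the cytosol, so its count is not one of acetyl-CoA supply to the nucleus. Any part of these genes in histone acetylation was not tested.

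Counts for deacetylase genes and for genes that read acetyl marks stand beside 20.3% higher and 14.7% lower among all compared genes from day -3 to day 7. Of 16 histone deacetylase and sirtuin genes with culture values 4 were higher and 1 lower at day 7 than at day -3. The 4 were Hdac8, Sirt3, Sirt4 and Sirt5, so the count is not one of enzymes that act on histones alone. Hdac7, a class IIa deacetylase, was at 158, 140, 42.1 and 29.5 FPKM, Sirt3, the mitochondrial deacetylase, at 2.83, 4.79, 5.31 and 18.0, and Hdac11 at 0.573, 5.05, 2.44 and 1.02. Of 27 other compared readers, most with bromodomains, 1 was higher and 4 lower. From day -3 to day 7 Cecr2 went from 0.0483 to 4.69 FPKM, Mllt1, which encodes a YEATS-domain elongation factor, from 41.4 to 9.49 and Dpf1 from 3.82 to 0.848. Of 12 P-TEFb and elongation genes 1 was higher and 0 lower. That was Hexim1, an inhibitor of P-TEFb, at 8.46, 10.7, 23.1 and 22.9 FPKM.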
